A study of Mus musculus with 16 samples.

Results

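The 10 genes described here encode subunits of the ionotropic glutamate receptors, the channels that glutamate opens directly: the AMPA receptor genes Gria1, Gria2, Gria3 and Gria4, the kainate receptor genes Grik1, Grik2, Grik4 and Grik5, and the NMDA receptor genes Grin1 and Grin3a. They were chosen by name, by matching the Ensembl identifiers of the count data to gene symbols, and are 10 of 52636 genes counted. The data are RNA sequencing of the L3 to L6 dorsal root ganglia (DRGs) of male C57BL/6J mice, 1 mouse per library and 4 mice in each of 4 groups. All mice had surgery, either spared nerve injury (SNI), in which branches of the sciatic nerve are cut, or a sham operation without the injury. From 4 weeks later they were injected with saline or with desipramine (DMI), a tricyclic antidepressant that blocks noradrenaline reuptake, at 15 mg/kg 2 times a day for 3 weeks, which gave the groups Sham-Saline and Sham-DMI and, with the injury, SNI-Saline and SNI-DMI. The methods section states an age of 3 to 4 months, and places the start of treatment 4 months rather than 4 weeks after surgery.

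Sensory neurons of the DRG release glutamate onto the spinal cord and carry glutamate receptors on their own central and peripheral endings. AMPA receptors give the fast current, and the edited protein of Gria2 makes them almost impermeable to calcium. The proteins of Grik1 and Grik2 form kainate channels, those of Grik4 and Grik5 join them as high-affinity partners, and kainate receptors built on Grik1 are a long-known feature of small sensory neurons. Every NMDA receptor holds the Grin1 protein, and Grin3a lowers the calcium flow of the receptors it enters.

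In the labels the tissue is spinal cord, whereas dorsal root ganglia are entered as the cell type. The sensory neuron genes Isl1, Avil and Prph stood at 95.1 to 114, 824 to 1033 and 1436 to 1960 CPM (counts scaled by library size). Of 8 spinal cord genes Olig2, Opalin, Lbx1, Mog and Olig1 had medians of 0.0154, 0.0174, 0.0155, 0.154 and 0.418 CPM. Pax2 and Tmem119 had medians of 1.56 and 2.52 CPM, and Aqp4, the highest, ran from 7.53 to 13.4 CPM. The 8 genes summed to 15.9 to 17.1 CPM in Sham-Saline and to 12.0 to 14.8 CPM in Sham-DMI. Between 41194238 and 73920332 read pairs per library fell on genes. Each of the 10 receptor genes had at least 614 counts in every library and passed the filter on low counts, which kept 21371 genes. The DMI libraries carry the numbers 17 to 24 in their titles (Sham-DMI 17 to 20, SNI-DMI 21 to 24). The saline libraries carry 33 to 40 (SNI-Saline 33 to 36, Sham-Saline 37 to 40). Each group thus has its own run of numbers, so anything that followed this numbering cannot be told apart from the drug or from the surgery.

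Grik1 was the most abundant receptor gene of the ganglia. In the 4 Sham-Saline libraries it reached 56.7 ± 9.12 CPM per kilobase of exon (SD, n = 4), and the next gene, Gria4, reached 16.6 ± 0.811. Grik5 (14.2 ± 1.48), Grik4 (13.1 ± 1.06) and Grin1 (12.8 ± 0.672) followed, and their ranges overlapped with each other and, for Grik5, with that of Gria4. Gria1 stood at 5.55 ± 0.504 CPM per kilobase, Grin3a at 3.99 ± 0.473, Gria3 at 3.80 ± 0.136, Gria2 at 3.17 ± 0.117 and Grik2 at 1.45 ± 0.0530. The range of Grin3a, 3.30 to 4.37, took in that of Gria3, 3.61 to 3.91, whereas Gria2, at 3.09 to 3.35, lay below Gria3. The order rests on the length used: per kilobase of coding sequence Grik1 remained the first of the 17 genes of the family, but Grin1 moved from place 5 to place 2, Gria2 from 10 to 6 and Gria1 from 6 to 10. Of 7 further genes of the family, Grik3 stood at 4.03 ± 0.317 and Grid1 at 2.95 ± 0.156 CPM per exon kilobase, Grin2d at 0.945 ± 0.207, Grin2c at 0.231 ± 0.0342 and Grin3b at 0.147 ± 0.0271. Grin2a and Grin2b, which encode the partner subunits of Grin1 in most brain NMDA receptors, were near the lower limit, with 1 to 18 and 2 to 12 counts per library.

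**Figure D1:**
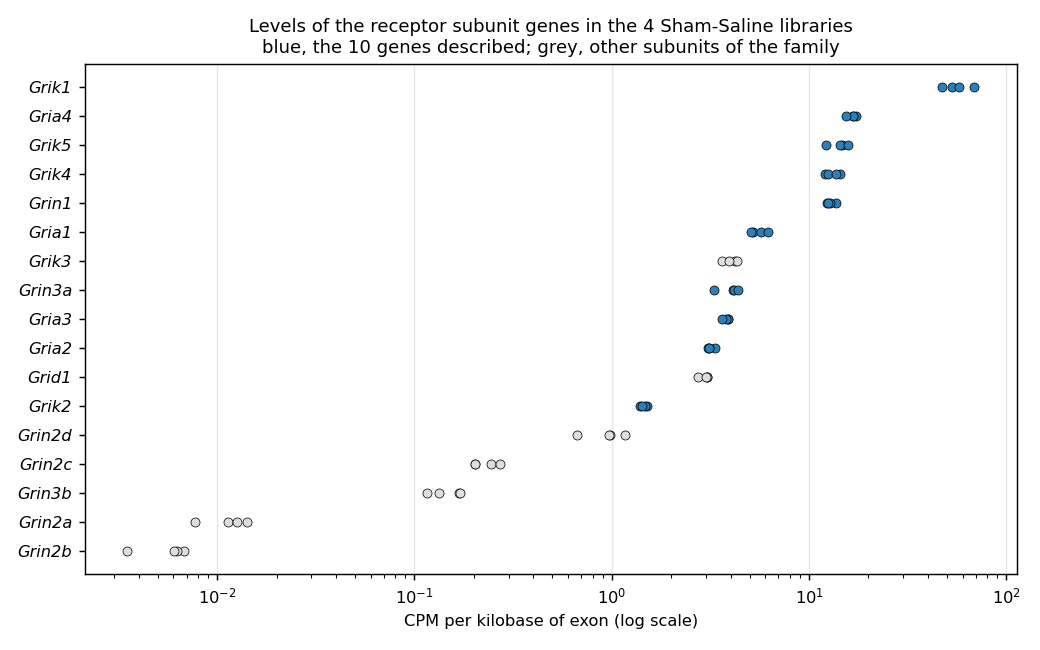
Levels in CPM per kilobase of exon (log axis) of 17 ionotropic glutamate receptor genes in the 4 Sham-Saline libraries, 1 point per library, blue for the 10 genes described and grey for the other subunits. Grik1 lies highest, with a mean of 56.7, and Grin2a and Grin2b lie lowest, with means of 0.0115 and 0.00567.

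Per kilobase of exon, 1 gene held most of the transcripts of each receptor class. Gria4 made up 56.9% of the AMPA receptor transcripts per exon kilobase (52.7% to 60.2% over 16 libraries), Gria1 20.7%, Gria3 12.5% and Gria2 9.95%. Per coding kilobase the share of Gria4 was 46.8% and that of Gria2 20.6%, since Gria2 has the longest exons of the 4 genes, 15.5 kb against 6.04 to 9.86 kb. Grik1 made up 62.3% of the kainate receptor transcripts, Grik5 16.7%, Grik4 15.3%, Grik3 4.19% and Grik2 1.56%. Grin1 made up 73.1% of the NMDA receptor transcripts and Grin3a 19.9%, and all Grin2 genes and Grin3b shared the rest, led by Grin2d with 5.07%.

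The 10 genes lie on 9 chromosomes, with Gria4 and Grik4 both on chromosome 9, and their transcripts differ widely in base composition. The longest transcript of Gria2 holds 36.8% G and C, that of Grik2 37.9% and that of Gria3 39.8%, which places them at percentiles 1.44, 2.66 and 6.14 of the genes tested. At the other end stand Grin1 with 59.4% and Grik5 with 61.7%, at percentiles 94.8 and 97.9. Promoter sequences were at hand for 6 of the 10 genes (RefSeq, GRCm38.p6). Those of 3 genes called in the comparisons below, Gria2 and Grik2, which fell, and Grin1, which rose, are shown as the 200 bases before the start site, 5′ to 3′ on the minus strand, which all of these genes use. They lie at chr3:80802836-80803035, chr10:49788755-49788954 and chr2:25319188-25319387, upstream of the first exon in RefSeq, and that of Grik2 reaches a few bases into the gene as GENCODE annotates it. Capitals mark a match to the right arm of the RE1 element, the binding sequence of the neuronal repressor REST.
Gria2: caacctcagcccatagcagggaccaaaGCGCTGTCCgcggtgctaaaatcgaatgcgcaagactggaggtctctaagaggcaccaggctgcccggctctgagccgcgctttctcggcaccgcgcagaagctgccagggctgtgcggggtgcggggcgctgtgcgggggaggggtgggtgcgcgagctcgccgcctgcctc
Grik2: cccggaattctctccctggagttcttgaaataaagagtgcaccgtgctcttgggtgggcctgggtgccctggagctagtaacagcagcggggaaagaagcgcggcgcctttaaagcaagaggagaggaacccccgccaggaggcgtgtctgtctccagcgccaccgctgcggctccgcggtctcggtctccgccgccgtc
Grin1: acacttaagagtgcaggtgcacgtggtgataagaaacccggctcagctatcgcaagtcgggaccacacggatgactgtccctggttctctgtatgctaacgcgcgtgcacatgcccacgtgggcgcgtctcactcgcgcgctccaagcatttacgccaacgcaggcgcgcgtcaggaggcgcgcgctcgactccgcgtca
In the 250 bases before the start, GGACAGCGC, the right arm of RE1, was found on the strand opposite to the gene in Gria2, 173 bases from the start, and in none of the other 5 promoters, and 0.304% of 32851 RefSeq promoters hold it on either strand. The left arm, TTCAGCACC (0.301%), the cyclic AMP element TGACGTCA (1.55%) and TATAAA (12.4%) matched none of the 6. The GC box GGGCGG (32.7% of all promoters) matched Grik4 and Grik5. The Gria2 promoter held 64.8% G and C over its 250 bases, against 36.8% in the transcript, so the low GC content of Gria2 lies in the transcribed part.

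The design asks what the injury does under saline (SNI-Saline versus Sham-Saline) and under DMI (SNI-DMI versus Sham-DMI), and what DMI does after sham surgery (Sham-DMI versus Sham-Saline) and after injury (SNI-DMI versus SNI-Saline). All 4 were fitted together, and comparisons with a group in common share its libraries. A gene was called at an adjusted p under 0.1 in edgeR's quasi-likelihood test, adjusted over all genes. In the comparisons of DMI with saline receptor genes were called in both surgery groups, mainly AMPA genes as lower. In those of SNI with sham none was called, where 12% of all genes were called under saline and 0.402% under DMI. The drug and the injury were not tested against each other. In Sham-DMI versus Sham-Saline Gria2, Gria3 and Grik2 fell and Grin1 rose, 4 of 10 genes, where 23.4% of all genes were called (11.9% lower, 11.6% higher). In SNI-DMI versus SNI-Saline Gria2 and Gria4 fell, 2 of 10 genes, where 2.93% of all genes were called (1.61% lower). That background moved with single libraries, from 0 genes on removal of SNI-Saline replicate 1 or 3 or of SNI-DMI replicate 1, 2 or 3 to 1842 genes on removal of Sham-DMI replicate 1. With trends on GC content and length removed from each library, 1 of these 6 calls, the rise of Grin1, was still made.

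**Figure D2:**
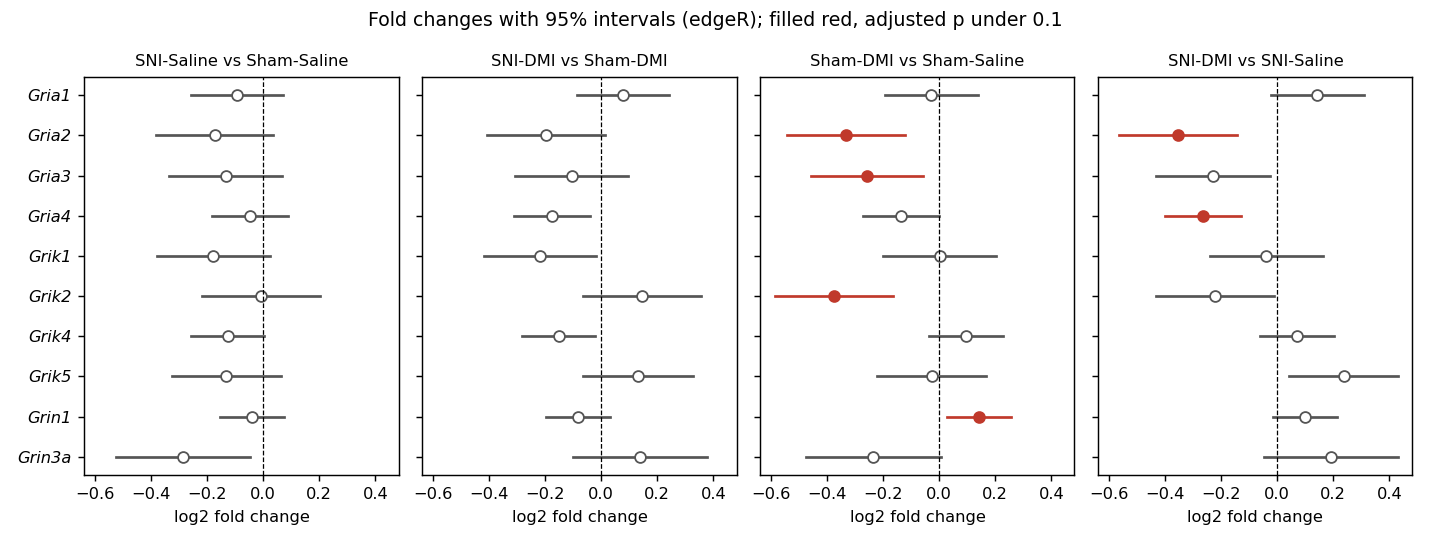
Log2 fold changes (x axis) of the 10 receptor genes in the 4 comparisons with 95% intervals from edgeR, filled red where the adjusted p was under 0.1. Red points stand for Gria2, Gria3, Grik2 and Grin1 in Sham-DMI versus Sham-Saline and for Gria2 and Gria4 in SNI-DMI versus SNI-Saline, and no gene is red in the comparisons of SNI with sham.

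Gria2 (chr3:80681450-80802835, minus strand, GRCm38) had its highest values in untreated sham mice and its lowest in treated injured mice. Replicates 1 to 4 stood at 52.0, 48.6, 48.1 and 48.5 CPM in Sham-Saline and at 32.2, 45.4, 42.6 and 36.6 CPM in Sham-DMI. In SNI-Saline they stood at 43.7, 40.9, 50.4 and 39.9 CPM and in SNI-DMI at 36.8, 28.7, 37.3 and 34.2 CPM. Every DMI library lay below every saline library of the same surgery. In the sham groups it fell by 20.5% (log2 fold change -0.33, SE 0.0998, adjusted p = 0.0309). In the SNI groups it fell by 21.8% (-0.35, SE 0.10, adjusted p = 0.0973). In the sham groups the call was lost in 1 of 16 fits that left out a library, that without Sham-DMI replicate 1 (-0.23, adjusted p = 0.125). In the SNI groups it was close to the threshold and was lost in 12 of 16, namely on removal of any single Sham-Saline or SNI-DMI library, of SNI-Saline replicate 1, 3 or 4, or of Sham-DMI replicate 3, over which the fold change ran from -0.40 to -0.28 and the adjusted p up to 0.286.

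Gria4 (chr9:4417896-4796234, minus strand), which encodes the main AMPA subunit transcript of these ganglia, fell with DMI in injured mice. It stood at 108, 96.1, 103 and 97.4 CPM in SNI-Saline and at 92.2, 75.8, 82.0 and 86.4 CPM in SNI-DMI, and the groups did not overlap. Its log2 fold change was -0.26 (SE 0.0646, adjusted p = 0.0734). Removing SNI-DMI replicate 1, 2 or 3 ended the call, as did removing SNI-Saline replicate 1, 3 or 4, with fold changes of -0.30 to -0.22 over all 16 such fits and adjusted p-values up to 0.237. In sham mice Gria4 stood at 109, 106, 105 and 97.2 CPM under saline and at 86.9, 101, 101 and 91.2 CPM under DMI, which overlap, and its log2 fold change was -0.14 (SE 0.0645, adjusted p = 0.164).

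Gria3 (chrX:41400854-41678601, plus strand) fell with DMI in sham mice. It stood at 38.5, 38.4, 37.2 and 35.6 CPM in Sham-Saline and at 23.7, 37.1, 30.8 and 33.6 CPM in Sham-DMI. Sham-DMI replicate 1 was the lowest library of all 16, and replicate 2 lay within the range of the saline group. Its log2 fold change was -0.26 (SE 0.0957, adjusted p = 0.0761). Removal of Sham-DMI replicate 1 ended the call (-0.13, adjusted p = 0.255), as did that of Sham-DMI replicate 3, of SNI-Saline replicate 1, of Sham-Saline replicate 1, 2 or 3, and of SNI-DMI replicate 1, 3 or 4. In the SNI groups Gria3 stood at 33.7, 31.1, 36.4 and 35.3 CPM under saline and at 30.3, 27.2, 28.3 and 30.7 CPM under DMI. These groups did not overlap, and the change of -0.23 (SE 0.0959, adjusted p = 0.213) passed the threshold in 1 of 16 fits, that without Sham-DMI replicate 1 (adjusted p = 0.0556), and in the fit of the 8 libraries alone (0.0689). In SNI-DMI versus SNI-Saline 3 of 10 receptor genes had groups that did not overlap, where 13.3% of all genes tested had none, and in Sham-DMI versus Sham-Saline 2 of 10 did, where 17.1% had none.

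Gria1, the AMPA subunit gene best known for its part in synaptic strengthening, was not called in any comparison. Under saline its values ran from 30.9 to 37.5 CPM after sham surgery and from 29.7 to 33.4 after SNI, and under DMI from 29.1 to 38.4 and from 33.1 to 37.4. The log2 fold change with DMI was 0.14 in SNI mice (95% interval -0.02 to 0.31, adjusted p = 0.336) and -0.03 in sham mice (-0.19 to 0.14, adjusted p = 0.856). Summed over the AMPA genes, the level per exon kilobase was 28.3 to 29.8 CPM in Sham-Saline against 24.6 to 27.9 in Sham-DMI, while it was 26.6 to 28.4 in SNI-Saline against 22.8 to 25.7 in SNI-DMI, so the DMI group lay below the saline group within each surgery. The sum holds Gria2, Gria3 and Gria4, described above as lower, and is no separate result. It was not computed with GC and length trends removed. Gria2 held 10.9% ± 0.280 of that sum in Sham-Saline (SD, n = 4) against 9.58% ± 0.957 in Sham-DMI, and 10.2% ± 0.886 in SNI-Saline against 9.07% ± 0.777 in SNI-DMI. In bulk tissue fewer cells of a type and less RNA per cell cannot be told apart.

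**Figure D3:**
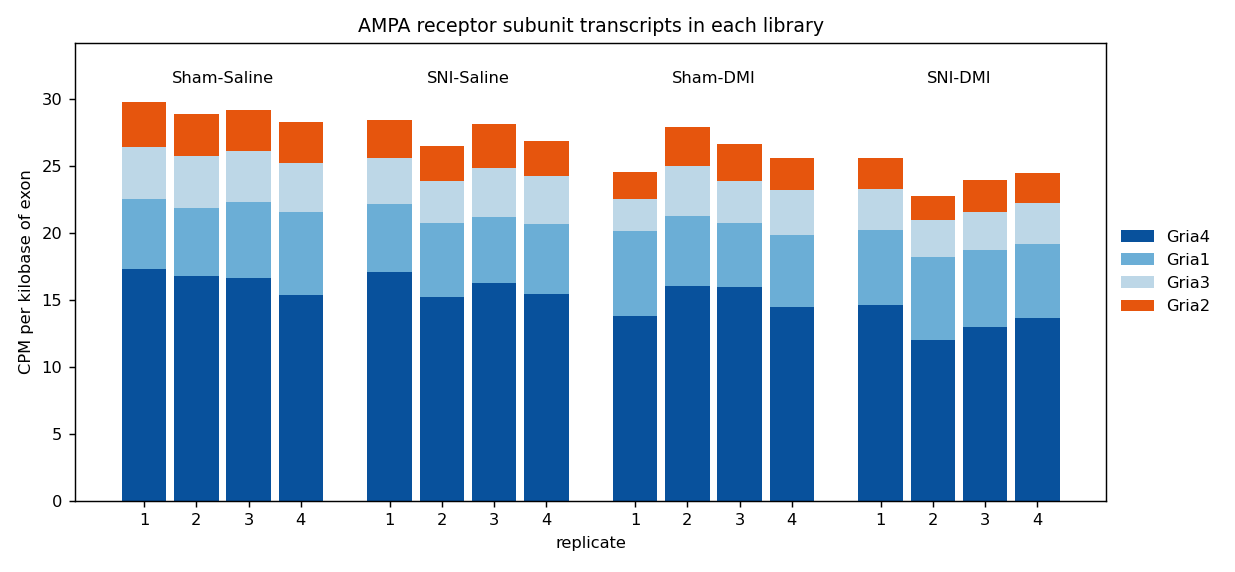
AMPA receptor transcripts in each of the 16 libraries as CPM per kilobase of exon, stacked by gene, with the replicate number on the x axis. The bars of SNI-DMI sum to 22.8 to 25.7 and those of Sham-Saline to 28.3 to 29.8, and Gria4 is the largest part of each bar.

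Among the kainate genes Grik2 (chr10:49094833-49788766, minus strand), the least abundant of the 10, fell with DMI in sham mice. It stood at 19.9, 19.6, 18.4 and 18.8 CPM in Sham-Saline and at 11.6, 16.6, 15.3 and 15.6 CPM in Sham-DMI. The groups did not overlap, and Grik2 fell by 22.9% (log2 fold change -0.38, SE 0.10, adjusted p = 0.0173). This call held in all 16 fits that left out a library (adjusted p up to 0.0621). In SNI mice it stood at 18.7, 18.7, 18.7 and 20.1 CPM under saline and at 16.8, 14.3, 15.0 and 19.3 CPM under DMI. Replicate 4 of SNI-DMI lay within the saline range, and the log2 fold change was -0.22 (SE 0.0999, adjusted p = 0.246).

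Grik1 was not called in any comparison. After sham surgery it ran from 318 to 462 CPM under saline and from 366 to 399 under DMI, and after SNI from 321 to 363 and from 286 to 369.9. Its DMI fold changes were 0.002 in sham mice (95% interval -0.20 to 0.20) and -0.04 in SNI mice (-0.24 to 0.16) on the log2 scale, and its injury fold changes were -0.18 under saline (SE 0.0957, adjusted p = 0.28) and -0.22 under DMI (SE 0.0956, adjusted p = 0.372). The partner genes Grik4 and Grik5 were not called either. Grik4 ran from 72.0 to 85.8 CPM in Sham-Saline against 78.0 to 88.3 in Sham-DMI, whereas it ran from 69.0 to 72.8 in SNI-Saline against 68.4 to 81.0 in SNI-DMI. The same ranges of Grik5 were 63.1 to 81.4 against 63.7 to 84.7 CPM and 61.3 to 74.4 against 72.4 to 91.0 CPM. The largest of their fold changes was that of Grik5 in SNI-DMI versus SNI-Saline, 0.24 (SE 0.0925, adjusted p = 0.183), which passed the threshold in the fit of those 8 libraries alone (adjusted p = 0.0998).

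Of the NMDA genes, Grin1 (chr2:25291181-25319187, minus strand) rose with DMI in sham mice. It stood at 134, 119, 124 and 121 CPM in Sham-Saline and at 138, 147, 137 and 127 CPM in Sham-DMI. The lowest DMI library, replicate 4, and the highest saline library, replicate 1, overlapped. Grin1 was higher by 10.4% (log2 fold change 0.14, SE 0.0543, adjusted p = 0.0817). Its call ended on removal of replicate 2 of Sham-DMI or SNI-DMI, of SNI-Saline replicate 4, or of Sham-Saline replicate 2, 3 or 4 (adjusted p up to 0.192), and over all 16 such fits the fold change ran from 0.12 to 0.20. Grin1 also missed the threshold with no filter on low counts (adjusted p = 0.134) and in the fit of the 8 libraries (0.101). In SNI mice it stood at 124, 129, 112 and 119 CPM under saline and at 133, 131, 130.3 and 123 CPM under DMI (log2 fold change 0.10, SE 0.0543, adjusted p = 0.337). The antisense gene Grin1os shares 1307 exon bases with Grin1. It had a mean of 122 counts against 7890 for Grin1, and whether the counting used strand is not stated.

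With TMM scaling Grin3a had the largest injury fold change of the 10 genes under saline. It stood at 40.5, 50.4, 51.2 and 53.6 CPM in Sham-Saline and at 45.4, 46.3, 33.1 and 35.8 CPM in SNI-Saline. The groups overlapped through Sham-Saline replicate 1, and the log2 fold change was -0.29 (SE 0.114, adjusted p = 0.137). In the DMI groups it stood at 47.8, 44.2, 37.8 and 36.6 CPM in Sham-DMI and at 44.4, 48.6, 40.9 and 49.6 CPM in SNI-DMI. Its DMI fold change was -0.23 in sham mice (SE 0.114, adjusted p = 0.173) and 0.19 in SNI mice (SE 0.114, adjusted p = 0.375). The sham value passed the threshold in 1 of 16 fits, that without Sham-Saline replicate 1 (-0.30, adjusted p = 0.0960).

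**Figure D4:**
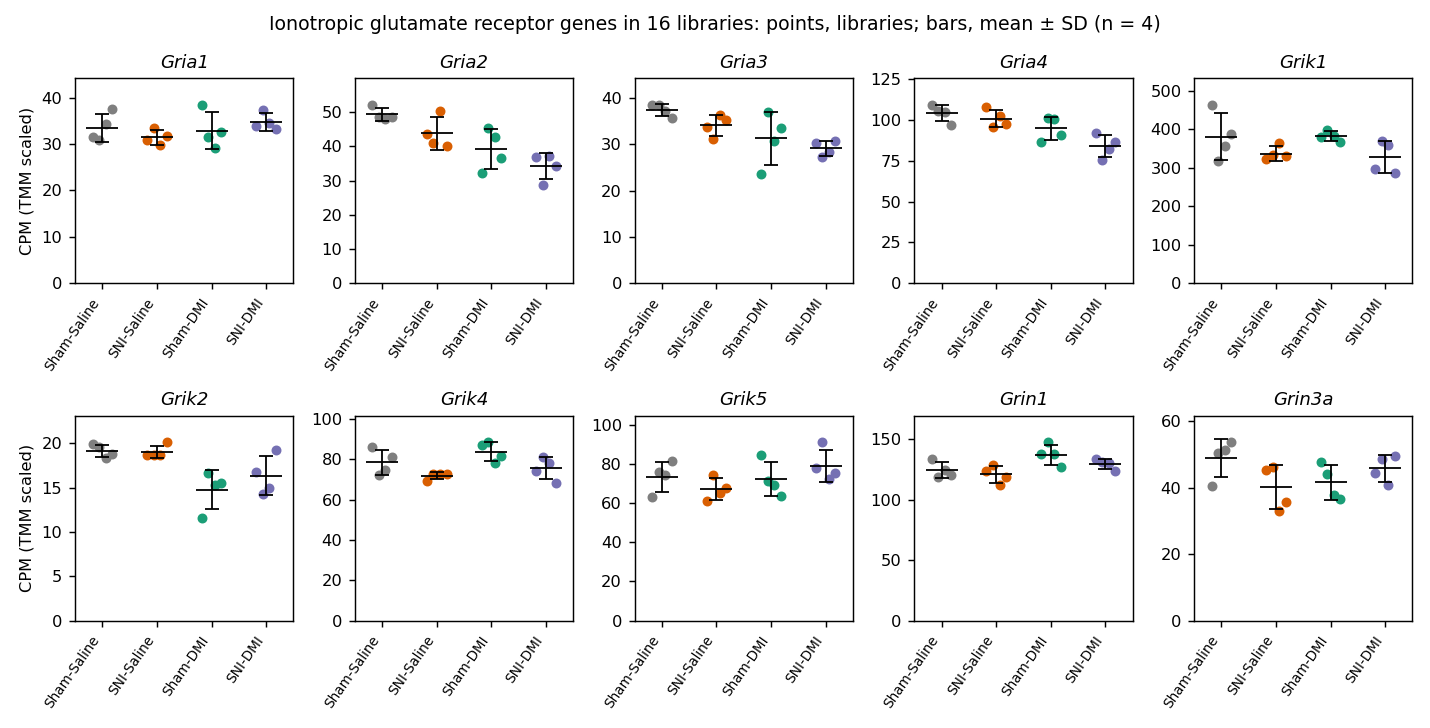
Levels in CPM (y axis, from 0) of the 10 receptor genes in the 4 groups, 1 point per library, with the mean and SD of 4. For Gria2 the DMI points lie below the saline points of the same surgery, from 48.1 to 52.0 in Sham-Saline down to 28.7 to 37.3 in SNI-DMI, and for most other genes the groups overlap.

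The nerve injury called none of the 10 genes. In SNI-Saline versus Sham-Saline, where 12% of all genes were called, the log2 fold changes ran from -0.29 for Grin3a to -0.01 for Grik2 and all 10 were below 0, with a median of -0.13 against -0.0006 over all genes tested. In edgeR 1 of them, Grin3a, had an unadjusted p under 0.05, where 23% of all genes did, and DESeq2 called it (-0.28, adjusted p = 0.0843). The direction was not shared by every setting, as Gria2, Gria3, Gria4, Grik2 and Grin1 stood at 0.02 to 0.25 with GC and length trends removed. In SNI-DMI versus Sham-DMI, where 0.402% of all genes were called, edgeR and DESeq2 called 0 of the 10. An unadjusted p under 0.05 was found for 3, Gria4 (-0.18), Grik1 (-0.22) and Grik4 (-0.15), where 12.1% of all genes had one, and the adjusted p-values of all 10 lay between 0.297 and 0.724. Without Sham-DMI replicate 1, Gria3 (-0.23, adjusted p = 0.0899) and Gria4 (-0.23, adjusted p = 0.0845) passed the threshold there.

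Whether the DMI effect differed between injured and sham mice was tested as the difference of both log2 fold changes. edgeR called 0 of the 10 genes and 0% of all genes, and DESeq2 called 0 of the 10 and 16 genes in all. For Gria2 the difference was -0.02 (95% interval -0.32 to 0.27), for Grik2 0.15 (-0.14 to 0.45) and for Gria4 -0.13 (-0.32 to 0.06). Grin3a had the largest, 0.43 (0.09 to 0.76, unadjusted p = 0.0163, adjusted p = 0.619), and was the 1 member with an unadjusted p under 0.05, where 7.92% of all genes had one.

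The DMI fold changes of the receptor genes followed the GC content of their transcripts and, inversely, their exon length. The 10 genes share the libraries and cannot count as replicates. Over them Pearson's r with GC content was 0.82 in Sham-DMI versus Sham-Saline and 0.85 in SNI-DMI versus SNI-Saline, with Spearman's rho of 0.81 and 0.85. For the injury rho over the 10 was 0.03 under saline and 0.27 under DMI. Over all genes tested rho with GC content was above 0 in all 4 comparisons. It was 0.31 and 0.38 for DMI in sham and SNI mice and 0.24 and 0.27 for the injury under saline and under DMI. With exon length, rho over the 10 genes was -0.70 and -0.52 for DMI in sham and SNI mice. Over all genes it was -0.32 and -0.19, and for the injury -0.28 under saline and -0.11 under DMI. Which of GC content and length the changes followed was not tested. For DMI, in the decile of lowest GC content (2133 genes, 28.3% to 41.2%) the median log2 fold change with DMI was -0.25 in sham and -0.18 in SNI mice, and in the decile of highest GC content 0.05 and 0.10. In that lowest decile, which holds Gria2, Grik2 and Gria3, 35.8% of genes were called lower in Sham-DMI versus Sham-Saline and 7.78% in SNI-DMI versus SNI-Saline. For the injury under saline its median was -0.14, with 15.7% called lower. The correlation of a library's deviations from the mean of all libraries with GC content ran from -0.44 to -0.22 over the Sham-Saline libraries, and from -0.09 to 0.29 over those of Sham-DMI. For SNI-Saline it ran from -0.20 to 0.14, and for SNI-DMI from 0.18 to 0.40. The same correlation with exon length ran from 0.24 to 0.42 in Sham-Saline and from -0.28 to 0.17 in Sham-DMI. For SNI-Saline that with exon length ran from -0.15 to 0.11, and for SNI-DMI from -0.24 to -0.19. The share of read pairs outside annotated genes was 8.67% to 9.44% in Sham-Saline against 7.10% to 8.79% in Sham-DMI, while it was 7.73% to 9.14% in SNI-Saline against 7.42% to 8.38% in SNI-DMI.

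**Figure D5:**
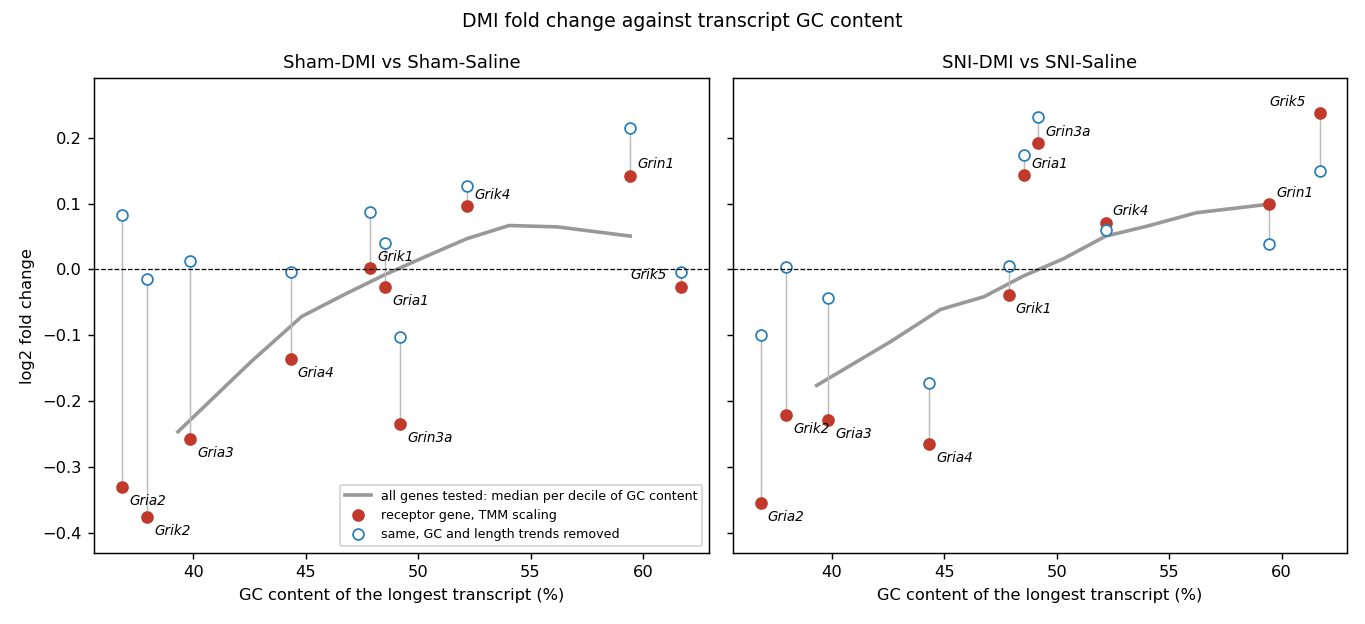
Log2 fold change with DMI (y axis) against the GC content of the longest transcript (x axis, percent) for the 10 receptor genes, in sham mice (left) and SNI mice (right), as filled red points for TMM scaling and open blue points with GC and length trends removed. The grey line joins the medians of all genes tested per decile of GC content, which rise from -0.25 to 0.05 on the left and from -0.18 to 0.10 on the right, and the red points of Gria2, Grik2 and Gria3 move towards 0 when the trends are removed.

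With smooth trends on GC content and length removed from each library, the low-GC genes no longer stood apart. In Sham-DMI versus Sham-Saline Gria2 stood at 0.08 (adjusted p = 0.410), Gria3 at 0.01 (0.929) and Grik2 at -0.02 (0.935). In SNI-DMI versus SNI-Saline Gria2 stood at -0.10 (adjusted p = 0.462) and Gria4, of 44.3% GC, at -0.17 (0.186). Grin1, with 9.70 kb of exon against a median of 3.40 kb, kept its call in Sham-DMI versus Sham-Saline at 0.21 (adjusted p = 0.0192). What part of the falls is technical and what part belongs to the mice was not tested.

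Markers of some cell types moved beside these values. In Sham-DMI versus Sham-Saline 4 of 10 general neuron genes rose and none fell, where 11.6% of all genes were called higher and 11.9% lower, and their summed level was 13592 to 16605 CPM in Sham-DMI against 12641 to 13467 CPM in Sham-Saline. Of 10 genes induced in injured sensory neurons 6 rose in the same comparison, from 399 to 433 CPM in all to 467 to 516 CPM. In SNI-Saline versus Sham-Saline, where 12% of all genes were called, 9 of those 10 rose, to 659 to 735 CPM. In SNI-DMI versus Sham-DMI, where 0.402% of all genes were called, 7 of them rose, to 660 to 897 CPM. None of the general neuron, macrophage or satellite glia genes was called there. Of 7 macrophage genes Ptprc and Mrc1 fell in Sham-DMI versus Sham-Saline, with sums of 62.4 to 69.3 CPM in Sham-Saline and 47.4 to 60.4 CPM in Sham-DMI, and of 7 satellite glia genes Apoe and Fabp7 rose and Cdh19 fell, with sums of 2111 to 2342 and 2305 to 2862 CPM. With injury under saline the neuron genes Tubb3 and Stmn2, the macrophage genes Aif1 and Cd68 and the satellite glia gene Apoe rose, and the satellite glia sums did not overlap (2421 to 2832 CPM against 2111 to 2342 CPM). In SNI-DMI versus SNI-Saline the satellite glia gene Fabp7 rose (0.34, adjusted p = 0.0973), none of the neuron, injured neuron or macrophage genes was called, and the sums of all 4 lists overlapped between the groups. Of 7 Schwann cell, 4 endothelial and 4 fibroblast genes none was called in any of the 4 comparisons, and the sums of these lists overlapped in each. The part of all these lists in the receptor values was not tested.

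Counting both directions together, the genes around the receptors were called about as often as all genes tested. With TMM scaling more of these calls were lower than higher. The 62 tested genes of the glutamate pathway outside the 10 comprise the other subunits, auxiliary subunits, scaffolds, metabotropic receptors, the handling of glutamate and of co-agonists, and RNA editing. Of these, 13 fell and 4 rose in Sham-DMI versus Sham-Saline (27.4%, against 23.4% of all genes, with 11.9% lower and 11.6% higher). The median of their log2 fold changes there was -0.13 against -0.02 over all genes. In SNI-Saline versus Sham-Saline 7 fell and none rose (11.3%, against 12%), in SNI-DMI versus SNI-Saline 2 fell and none rose (3.23%, against 2.93%), and in SNI-DMI versus Sham-DMI none was called. With GC and length trends removed, the balance in Sham-DMI versus Sham-Saline turned to 4 that fell and 6 that rose, Cacng4 fell in SNI-Saline versus Sham-Saline (-0.33, adjusted p = 0.0826) and Cacng2 in SNI-DMI versus Sham-DMI (-0.36, 0.0739). Both encode AMPA auxiliary subunits and were named after their values were seen.

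Among the subunits, Grik3, a kainate gene of 54.2% GC, fell in Sham-DMI versus Sham-Saline. It stood at 37.9, 32.5, 38.9 and 35.4 CPM under saline and at 26.4, 32.8, 28.2 and 23.8 CPM under DMI, with Sham-DMI replicate 2 within the saline range. The log2 fold change was -0.38 (adjusted p = 0.0157), it held without any 1 library, and with the trends removed it was -0.32 (adjusted p = 0.0348). In SNI-DMI versus SNI-Saline that of Grik3 was 0.02 (adjusted p = 0.929). The difference between the DMI effects was 0.40 (unadjusted p = 0.0104, adjusted p = 0.619) and was not called.

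Neto2, whose protein rides on kainate receptors and slows their desensitization, fell both with injury under saline (-0.44, adjusted p = 0.00778) and with DMI in sham mice (-0.52, adjusted p = 0.00176), 2 comparisons that share the Sham-Saline libraries. The calls held without any 1 library, and with the trends removed the values were -0.24 (adjusted p = 0.137) and -0.19 (0.168), at a GC content of 36.5%. Of 15 AMPA auxiliary genes tested, Frrs1l, Cacng4 and Shisa6 fell and Cpt1c and Porcn rose in Sham-DMI versus Sham-Saline. Over all genes 11.9% were called lower and 11.6% higher there. Cacng4, one of the transmembrane AMPA receptor regulatory proteins, stood at -0.35 (adjusted p = 0.0263) and at -0.38 (0.0176) with the trends removed, and lost its call without Sham-DMI replicate 4 (adjusted p = 0.113). Cpt1c, which governs the delivery of AMPA receptors to the membrane, stood at 0.21 (adjusted p = 0.00436), at 0.22 (0.00392) with the trends removed, and held without any 1 library. Frrs1l, an assembly factor of AMPA receptors, stood at -0.34 (adjusted p = 0.00876) with DMI in sham mice and at -0.29 (0.0435) with injury under saline, and at -0.18 (0.162) and -0.20 (0.187) with the trends removed. Its injury call ended on removal of SNI-Saline replicate 2 or of Sham-Saline replicate 1 or 3 (adjusted p up to 0.154). Shisa6 stood at -0.45 (adjusted p = 0.0327), and lost its call on removal of Sham-DMI replicate 3 or Sham-Saline replicate 1 (up to 0.110), and stood at -0.37 (0.0923) with the trends removed. Porcn stood at 0.13 (adjusted p = 0.0787), called in 12 of 16 fits without 1 library, and at 0.07 (0.417) with the trends removed.

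Of 16 scaffold genes, Homer1, Homer2, Dlgap1 and Grip1 fell in SNI-Saline versus Sham-Saline, where 12% of all genes were called. In Sham-DMI versus Sham-Saline Homer1, Homer2, Dlgap1, Dlg1 and Shank2 fell and Nsf rose. There 11.9% of all genes were called lower and 11.6% higher. Homer1, which links metabotropic receptors to calcium stores, stood at -0.35 (adjusted p = 0.00983) with injury and at -0.43 (0.00180) with DMI, each in all 16 fits without 1 library, and at -0.09 (0.577) and -0.03 (0.837) with the trends removed. Shank2 stood at -0.41 (adjusted p = 0.0491) with DMI in sham mice and at -0.33 (0.0873) with the trends removed, and was called in 11 of 16 fits without 1 library. The other downward scaffold calls were made in 5 to 14 of 16 such fits and in none with the trends removed. Nsf, an ATPase of membrane fusion that also binds AMPA receptors and was named after its values were seen, stood at 0.14 (adjusted p = 0.0995) and at 0.22 (0.0100) with the trends removed, and was called in 8 of 16 fits without 1 library.

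Slc1a2, a glial glutamate transporter, fell with DMI in both surgery groups. It stood at -0.52 in sham mice (adjusted p = 0.0201), in all 16 fits without 1 library, and -0.49 in SNI mice (adjusted p = 0.0999), in 3 of 16, and -0.34 (0.127) and -0.39 (0.218) with the trends removed. Folh1, which cleaves a peptide to release glutamate, fell in SNI mice (-0.43, adjusted p = 0.0959, called in 6 of 16 such fits), and stood at -0.29 (0.229) with the trends removed. Gls2, a glutaminase gene, rose in sham mice (0.22, adjusted p = 0.0637, 14 of 16 fits) and stood at 0.18 (0.201) with the trends removed. Slc17a6, the vesicular transporter of glutamatergic sensory neurons, fell with DMI in sham mice (-0.16, adjusted p = 0.0785, called in 5 of 16 fits without 1 library). With the trends removed it stood at -0.02 (0.892). Grm7, a presynaptic metabotropic receptor gene, fell with injury under saline (-0.21, adjusted p = 0.0647, 9 of 16 fits), and Adarb2, of the RNA editing list, with DMI in sham mice (-0.64, adjusted p = 0.0995, 4 of 16 fits). With the trends removed neither was called (Grm7 -0.17, adjusted p = 0.152, and Adarb2 -0.47, adjusted p = 0.288).

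For each called receptor gene the 3 genes most like it were those with the highest Pearson's r of log2 CPM over the 16 libraries. For Gria2 they were Plcb4 (0.97), Ubxn2a (0.97) and Zfp955b (0.96), for Gria4 Nrcam (0.96), Camk1d (0.95) and Abcd2 (0.95), and for Gria3 Olfm3 (0.94), Zbtb33 (0.94) and Slc7a2 (0.94). For Grik2 they were Itgb8 (0.93), Cdh19 (0.93) and Adgrg6 (0.92), and for Grin1 Snph (0.90), Ap1b1 (0.87) and Sfxn3 (0.87). The genes most like Gria2, Gria3, Gria4 and Grik2 had GC contents of 36.7% to 46.9%, and those most like Grin1 53.0% to 58.5%, against a median of 49.4% over all genes tested.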

How the data were processed

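RNA was sequenced from the L3 to L6 DRGs of 16 mice. The authors made libraries with a stranded mRNA kit, aligned read pairs to mm10 with HISAT2 and, per the labels, counted them per Ensembl gene with HTSeq. The deposited values are whole-number counts without normalization. Aligner and counter versions, whether strand was used and which annotation served for counting are not given in the sources used here. The 5 closing lines of unassigned pairs in each file (18.83% to 20.44% of pairs) were left out. Of 52636 identifiers 52489 matched GENCODE M21 (GRCm38), which gave symbols, lengths and GC content. All 10 receptor genes matched 1 identifier each.

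Genes were kept by filterByExpr (21371), scaled by TMM and fitted in edgeR 4.0.16 (R 4.3.3) with glmQLFit, 1 coefficient per group, and p-values were adjusted after Benjamini and Hochberg (threshold 0.1). SE is the log2 fold change divided by the root of F. CPM use the TMM library sizes, and CPM per kilobase divide by the union of exons. Replicates of a group differed by a mean chi-square per gene of 10.5 to 44.8, over genes above a low count, so no library appeared to be a copy. For these genes the spread between libraries exceeded that of counting alone. With 1 library per mouse, the part of the mice and that of handling cannot be told apart. Depth ran from 41194238 to 73920332 counts. Deviations of mice of the same number in different groups had correlations of -0.24 to 0.334, against -0.479 to 0.343 for mice of other numbers. Of the 24 pairs of the same number 8 had a correlation over 0.1, and the highest, 0.334 and 0.332, joined libraries of replicate 3. The replicate number was not used to pair mice in the main fit.

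Alternatives were no filter (38220 genes), a minimum of 10 counts in each library (18011 genes), DESeq2 1.42.0, upper-quartile scaling, the 8 libraries of a comparison, 1 svaseq surrogate variable (sva 3.50.0), a block for the replicate number, and smooth trends on GC content and length removed per library (mgcv 1.9.3, basis size 8), the last also with the block. Each library was left out in turn. All 10 genes were named, and from the other lists those called, up to 5 per list and comparison, and 2 genes of these lists are not reported here. The members and lists were chosen with earlier results of these data known.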

Additional observations from a re-analysis of the deposited data

Results flagged for a closer look

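In 40 sets of 4 libraries (10 genes in 4 groups), 3 held a library whose gap to the nearest of the others exceeded Dixon's 95% limit for 4 samples. Chance marks about 1 set in 20. Gria2 stood at 52.0 CPM in Sham-Saline replicate 1 and at 48.1 to 48.6 CPM in the other libraries of the group. Grik2 stood at 20.1 CPM in SNI-Saline replicate 4 against 18.7 CPM in each of the others, and Grik4 at 69.0 CPM in SNI-Saline replicate 1 against 72.4 to 72.8 CPM. Without Sham-Saline replicate 1, Gria2 kept its call in Sham-DMI versus Sham-Saline and lost the one in SNI-DMI versus SNI-Saline, a comparison that this library enters only through the shared estimate of the spread and the scaling.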

How the results depend on the processing

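There were 1000 recomputed fold changes of the 10 genes (9 other settings and 16 fits without 1 library, in 4 comparisons). Of these 903 kept direction and side of the threshold and 45 changed sign. With the sign kept, 45 lost the call and 7 gained one. Those that changed sign include further lost calls, of Gria2 and Gria3 in Sham-DMI versus Sham-Saline with the trends removed. They also include a gained one, of Grik2 with injury under saline, with the trends removed and the block. The number called in SNI-DMI versus SNI-Saline, 2, became 0 with the replicate block (Gria2 -0.35, adjusted p = 0.122, Gria4 -0.26, adjusted p = 0.107), 0 with GC and length trends removed and 0 with both, 4 in the fit of the 8 libraries, and 0 to 3 without 1 library. In Sham-DMI versus Sham-Saline, 4 became 1 with the trends removed and 1 with the block added, 2 with 8 libraries, 3 without a filter (Grin1 missing in both) and 2 to 4 without 1 library, and the replicate block alone left 4. In SNI-Saline versus Sham-Saline, 0 became 1 with DESeq2 and 1 with the trends removed and the block (Grik2, adjusted p = 0.0960), and stayed at 0 without any 1 library. In SNI-DMI versus Sham-DMI the count was 0 to 2 without 1 library. For the difference between the DMI effects it was 0 throughout. The replicate block changed no other call of the 10 genes. The numbers share no stated origin, and 6 of 16 libraries were most like those of their own number. Among all genes the calls in SNI-DMI versus SNI-Saline went from 626 to 172 with the block, 71 with the trends removed, 1812 with 8 libraries and 1898 with DESeq2, in SNI-Saline versus Sham-Saline from 2571 to 1012 with the trends removed, and in SNI-DMI versus Sham-DMI from 86 to 310 without a filter, 147 with the surrogate variable, 174 with the trends removed, 517 with DESeq2 and 9 with 8 libraries. Without 1 library these calls ran from 0 to 1842, from 682 (without Sham-Saline replicate 3) to 3286 (without Sham-DMI replicate 1) and from 17 (without SNI-DMI replicate 4) to 850 (without Sham-DMI replicate 1), and in Sham-DMI versus Sham-Saline from 3286 to 6094. For the difference between the DMI effects DESeq2 called 16 genes. The causes were not tested.

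With the trends removed, without and with the block, the sign turned for injury under saline in Gria2 (0.1256, 0.1232), Gria3 (0.0419, 0.0429), Gria4 (0.0246, 0.024), Grik2 (0.2485, 0.2472) and Grin1 (0.0311, 0.0318), for DMI under SNI in Grik1 (0.0048, 0.0037) and Grik2 (0.0034, 0.0015), and for DMI under sham in Gria1 (0.0396, 0.0361), Gria2 (0.0828, 0.0821) and Gria3 (0.0133, 0.0103). Values near 0 also turned elsewhere: Grik2 with injury under saline to 0.0059 by upper-quartile scaling, 0.0006 with the surrogate variable and in 9 of 16 fits without 1 library (-0.0326 to 0.0213 over all 16), Grin1 there without Sham-Saline replicate 1 (-0.0605 to 0.0062), and Grik1 with DMI in SNI mice without SNI-DMI replicate 1 or 4 (-0.1052 to 0.0227). With DMI in sham mice Grik1 turned to -0.0013 at 10 counts per library and without Sham-Saline replicate 2 or 3 (-0.0764 to 0.1261), and Gria1 (-0.0922 to 0.0416) and Grik5 (-0.0944 to 0.0477) turned in 4 such fits each.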

Other observations

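The low NMDA subunit genes were counted in every library. Grin2d ran from 4.43 to 9.10 CPM, Grin2c from 0.450 to 1.59, Grin3b from 0.244 to 0.658, Grin2a from 0.0250 to 0.290 and Grin2b from 0.0306 to 0.200 CPM, and none of them passed the test in any comparison. Grin3b, whose protein joins Grin1 in glycine-gated channels, shares 1059 exon bases with Tmem259 on the opposite strand, which had a mean of 6891 counts against 26 for Grin3b, and Grin2d shares 643 exon bases with the antisense gene Gm45441 (81 counts against 380).

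Markers of sensory neuron classes gave the following sums and calls. Of all genes tested 23.4% were called in Sham-DMI versus Sham-Saline (11.9% lower, 11.6% higher) and 12% in SNI-Saline versus Sham-Saline. Those of 5 non-peptidergic nociceptor genes were 1423 to 1663 CPM in Sham-Saline against 1372 to 1580 in Sham-DMI, while they were 1314 to 1436 in SNI-Saline against 1294 to 1526 in SNI-DMI, and Mrgprd and Gfra2 fell with injury under saline. The 5 peptidergic genes summed to 1446 to 1741 against 1610 to 1967 CPM and to 1588 to 2001 against 1843 to 2027 CPM, and Calca rose with DMI in sham mice. Of 5 neurofilament-rich (A-fibre) genes, Pvalb and Nefh rose and Ntrk2 and Ntrk3 fell with DMI in sham mice, and Spp1 rose and Ntrk2 fell with injury under saline, with sums of 2724 to 3408 CPM in Sham-Saline, 3094 to 3681 under DMI and 3113 to 3405 after injury, which overlap. Of 4 somatostatin-class genes Nppb rose with DMI in sham mice and Il31ra fell with injury under saline. None of 4 tested C-low-threshold mechanoreceptor genes was called, and their sums overlapped in each comparison, at 170 to 247 CPM in Sham-Saline and 187 to 209 in SNI-Saline. Under DMI they were 188 to 258 CPM in sham and 205 to 281 in SNI mice.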
